A study of Mus musculus with 4 samples.

Results

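The collagen genes described here are the autosomal RefSeq genes whose symbols join a collagen type number and a chain number, such as Col1a1. All 42 such genes had cytosines measured in every mouse within the gene body plus 2 kb on each side. They belong to 16575 autosomal protein-coding genes with such cytosines, and they hold 3110 of the 1253673 autosomal cytosines common to all mice. Liver DNA was profiled by enhanced reduced representation bisulfite sequencing (ERRBS), in which DNA is cut so that CpG-rich fragments are kept and bisulfite then leaves methylated cytosines as C and turns the others into T. The 4 male mice were 6 to 8 weeks old and on normal diet. Mixed-1 and Mixed-2 carried a mixed background of undefined composition that included C57BL/6J, and B6-1 and B6-2 were Black-6 (C57BL/6) mice. The labels give no treatment or engineered allele for any of them. Each strain was housed at its own institution and had its own sequencing depth, so strain, housing and depth cannot be told apart with 2 mice each. Nothing in the labels joined mice of the strains into pairs, and each liver was 1 sample.

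Collagens are proteins of the extracellular matrix whose chains wind into a triple helix and carry glycine at regular steps along the helix. Fibrillar collagens form the fibrils of bone, skin, cartilage and scar tissue, and type IV collagen forms the network of basement membranes on which epithelial and vascular cells sit. In liver, stellate cells and other mesenchymal cells are known as the main makers of fibrillar collagen, and hepatocytes make up most of the tissue. DNA methylation in mammals sits mainly on CpG dinucleotides. Promoters rich in CpGs are known to be mostly free of it, while transcribed bodies of genes usually carry it.

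The value reported is the methylation level, the percentage of reads at a cytosine that were C, averaged over the cytosines of a region and then over genes. Each strand of a CpG counted as a cytosine, and every collagen cytosine lay on a CpG of the reference. Promoters were the 1000 bp on each side of a curated transcription start, exons and introns followed in that order, and a region was used with at least 3 common cytosines. Levels above 80% were called hypermethylated and levels below 20% hypomethylated. Coverage summed over all listed cytosines came to between 60654199 and 99215153 per mouse. These sums are not numbers of sequenced reads, since a read over several cytosines is counted at each of them. The median coverage of common cytosines was 41 and 45 reads in the Mixed mice and 65 and 61 in the B6 mice. The collagen cytosines had median coverages of 46 to 77 reads in promoters, 38 to 61 in exons and 34 to 58 in introns. Hydroxymethylated cytosines also resist bisulfite and are counted here as methylated. In this bulk tissue, few cells with a fully changed state and many cells with a partly changed one cannot be told apart.

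Marker promoters gave limited information on the cells in these livers. Of 10 hepatocyte markers, 4 had a measured promoter. Apoa2, an apolipoprotein gene, averaged 0.651% and Trf, the transferrin gene, 0.354%, while Hnf4a averaged 28.7% and Fgb 29.95%. The stellate cell and fibroblast list had 5 of 7 promoters measured between 0.476% and 22.8%, the endothelial list 1 of 4 (Kdr, 1.71%), the cholangiocyte list 3 of 3 between 0.680% and 3.81%, and the blood list 1 of 5 (Adgre1, 83.0%). A low promoter level is not particular to the cell that uses the gene, and the part of cell composition in the collagen values was not tested.

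On the mean over genes, collagen promoters were hypomethylated and collagen bodies methylated in every mouse. Over 28 genes, promoters averaged 10.9% (Mixed-1), 10.8% (Mixed-2), 9.91% (B6-1) and 10.5% (B6-2), the order of mice kept in all lists of 4 values that follow. Exons averaged 82.4%, 82.8%, 82.0% and 81.2% over 37 genes. Introns lay between these and averaged 69.4%, 70.8%, 69.7% and 70.3% over 40 genes. Exons exceeded promoters by 71.6 ± 0.599 percentage points (SD, n = 4 mice), introns exceeded promoters by 59.5 ± 0.680 points, and exons exceeded introns by 12.1 ± 0.880 points. Each of the 3 differences had the same sign in all 4 mice. A two-sided exact sign test over the mice gave p = 0.125. With 4 mice this exact test cannot go lower, and it is the test behind the equal p-values that follow. The order of exons and introns depended on where promoters end. With a promoter of the 1000 bp upstream alone, which adds the first kilobase of each gene to its exons and introns, exons fell below introns by a difference of -2.17 points. Single cytosines showed the same contrast, since between 93.7% and 94.4% of the 943 promoter cytosines were hypomethylated in each mouse, and between 66.4% and 69.0% of the 786 exon cytosines were hypermethylated.

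The profile around collagen starts was low on both sides and then rose. Collagen cytosines averaged 2.14% over the last 250 bp upstream and 3.02% over the first 250 bp downstream, against 1.31% and 1.501% in all other genes. Between 500 and 1000 bp downstream they averaged 2.93%, and other genes 4.35%. Further upstream the order changed with the interval. Collagen cytosines were higher between 1000 and 500 bp before the start, at 33.8% (27 cytosines) against 6.09%, and lower between 1500 and 1000 bp before it, at 13.3% (70 cytosines) against 15.6%. Of these 70 cytosines, 55 belonged to Col27a1 alone and averaged 0.971%, so the lower value there rested on that gene. The 27 cytosines of the higher interval included 8 of Col11a2 at 44.0% and the 4 promoter cytosines of Col6a6 at 91.1%. They also included those of Col9a1 at -936 and -911 bp, so the higher value rested largely on these genes. Between 3000 and 5000 bp downstream collagen cytosines had reached 70.1% (67 cytosines), and those of other genes 44.4%. The excess was not shared by the fibrillar genes, whose 8 cytosines there averaged 32.4%. The 6 cytosines of basement membrane genes averaged 66.5%. These are site means over unequal numbers of genes, given as a description.

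**Figure D1:**
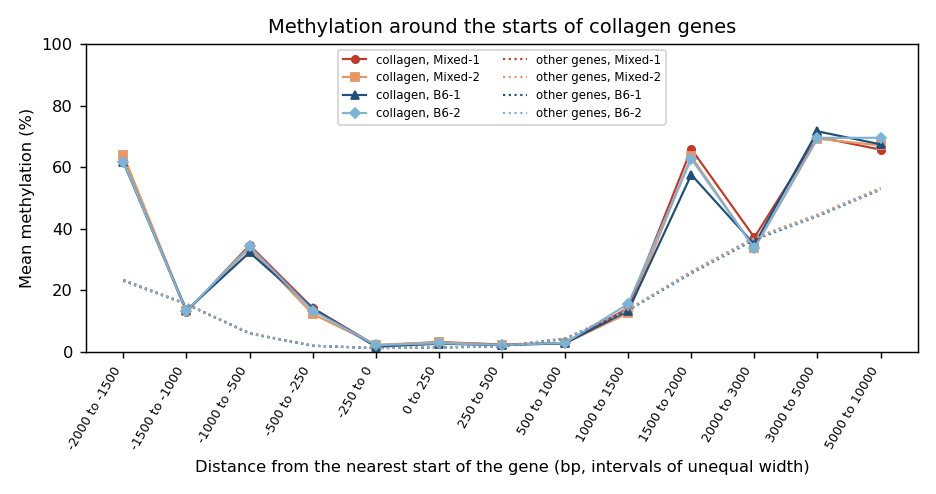
Mean methylation (%) of common cytosines by distance from the nearest start of their gene (bp, intervals of unequal width), with a solid line for collagen genes and a dotted line for all other genes in each of the 4 mice. Both lines are lowest at the start, and the collagen line is above the other at 3000 to 5000 bp downstream, 70.1% against 44.4%. Fibrillar genes, not drawn separately, averaged 32.4% there over 8 cytosines.

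Fibrillar collagen promoters were nearly all hypomethylated, with Col11a2 as the exception. Of the 11 fibrillar genes, 8 had a measured promoter, and their levels ranged from 0.301% to 39.9%. Col27a1, a minor fibrillar chain, had the lowest level, with 0.384%, 0.291%, 0.154% and 0.374% over 91 cytosines. Col1a2, the second chain of type I collagen, had 0.439%, 0%, 1.25% and 1.28% over 4 cytosines. Col5a1, a chain of the type V collagen that starts fibrils, had 1.05%, 0.716%, 1.09% and 0.851% over 74 cytosines. Each of these levels was below 2% in every mouse. Col11a1, of cartilage fibrils, had 2.24%, 2.22%, 1.26% and 0.914% over 9 cytosines, and Col2a1, the main cartilage collagen, had 1.77%, 1.99%, 1.70% and 1.46% over 44. Col5a3 had 6.35%, 6.17%, 5.70% and 4.46% over 21 cytosines, and Col5a2 had 13.7%, 24.3%, 15.3% and 12.4% over 8. The Col5a2 value of Mixed-2 stood above the 20% bound and the others below it. Those 8 cytosines all lay downstream of the start, between 628 and 773 bp from it.

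Col11a2, a further chain of cartilage fibrils on chr17:34038919-34066684, had 39.0%, 39.1%, 40.9% and 40.8% over 24 promoter cytosines. The 4 mice differed by less than 2 points, and no mouse came near either bound. The 18 upstream cytosines, 400 to 672 bp before the start, averaged 44.0%, 44.7%, 44.7% and 43.6%. The 6 downstream ones, 438 to 588 bp after it, averaged 23.7%, 22.0%, 29.4% and 32.5%. Single upstream cytosines ran from 15.2% to 82.6% on the mean of the 4 mice. No common cytosine lay closer to the start than these, so the Col11a2 level describes the edges of its promoter window. Of the other fibrillar genes, Col1a1 had 1 promoter cytosine (71.4%, 85.7%, 65.8% and 68.0%), Col24a1 had 2 (mean 11.8%), and Col3a1 had none.

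Averaged over all promoter cytosines of a gene, the 6 measured basement membrane promoters were hypomethylated in every mouse. Col4a1 and Col4a2, the chains of all basement membranes, are read in opposite directions from starts at 11312826 and 11312805 on chromosome 8 and share the same 63 promoter cytosines, which averaged 0.362%, 0.451%, 0.513% and 0.211%. Col4a3 and Col4a4, chains of the kidney's filtering membrane, share 10 promoter cytosines in the same way, with 4.67%, 1.80%, 3.63% and 3.99%. Each pair therefore gives 1 promoter measurement, not a pair of them. Col15a1, which joins basement membranes to the matrix around them, had 2.28%, 1.96%, 1.84% and 1.57% over 56 cytosines. Col18a1, the source of the endostatin fragment, had 4.42%, 5.55%, 3.83% and 5.11% over 47.

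The shared Col4a1 and Col4a2 promoter is printed from the RefSeq promoter table (GRCm38.p6) as the lowest basement membrane promoter, on the Col4a1 strand, chr8:11312777-11313076. Below it stands that of Col5a3 (minus strand, chr9:20815018-20815317), a fibrillar promoter with many measured cytosines. Capitals mark CpGs with a measured cytosine, 20 of 37 in Col4a1 and 14 of 20 in Col5a3.
Col4a1: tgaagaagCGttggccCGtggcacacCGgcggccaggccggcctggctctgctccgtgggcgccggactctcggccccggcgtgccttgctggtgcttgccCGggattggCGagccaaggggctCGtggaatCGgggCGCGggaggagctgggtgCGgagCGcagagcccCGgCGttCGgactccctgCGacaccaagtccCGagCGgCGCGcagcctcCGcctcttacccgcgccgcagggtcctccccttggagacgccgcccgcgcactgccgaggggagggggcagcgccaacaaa
Col5a3: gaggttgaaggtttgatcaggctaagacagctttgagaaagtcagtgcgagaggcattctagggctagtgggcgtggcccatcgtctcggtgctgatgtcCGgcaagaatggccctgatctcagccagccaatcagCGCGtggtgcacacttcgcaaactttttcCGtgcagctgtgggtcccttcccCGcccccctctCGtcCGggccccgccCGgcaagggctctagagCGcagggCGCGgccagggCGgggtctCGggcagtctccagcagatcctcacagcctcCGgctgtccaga
The measured cytosines within these 300 bases averaged 0.273% in Col4a1 and 4.53% in Col5a3. An entry matched for 33 of the 42 genes. The genes without one were Col1a1, Col2a1, Col5a2, Col4a3, Col12a1, Col14a1, Col22a1, Col9a3 and Col26a1.

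The promoters of Col18a1 differed from each other within each liver. The gene lies on the minus strand of chromosome 10 and has curated starts at 77166530 and 77113705, the only collagen gene with more than 1 measured start. The upstream start had 1.32%, 1.03%, 0.867% and 0.876% over 37 cytosines. At the downstream start the levels were 15.9%, 22.3%, 14.8% and 20.8% over 10 cytosines, above the 20% bound in Mixed-2 and B6-2. The downstream start was higher by 17.4 ± 3.71 points (SD, n = 4 mice), in all 4 mice (exact sign test, p = 0.125). Both sequences are shown because the windows also differ in CpG number. The first (chr10:77166481-77166780) holds 16 CpGs and the second (chr10:77113656-77113955) holds 6, again with capitals at measured CpGs.
Col18a1 upstream start: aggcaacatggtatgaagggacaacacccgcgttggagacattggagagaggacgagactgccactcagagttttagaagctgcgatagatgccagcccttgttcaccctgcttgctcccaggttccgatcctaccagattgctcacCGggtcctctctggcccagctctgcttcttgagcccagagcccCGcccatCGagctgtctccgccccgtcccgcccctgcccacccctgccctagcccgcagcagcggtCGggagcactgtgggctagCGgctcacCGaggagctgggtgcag
Col18a1 downstream start: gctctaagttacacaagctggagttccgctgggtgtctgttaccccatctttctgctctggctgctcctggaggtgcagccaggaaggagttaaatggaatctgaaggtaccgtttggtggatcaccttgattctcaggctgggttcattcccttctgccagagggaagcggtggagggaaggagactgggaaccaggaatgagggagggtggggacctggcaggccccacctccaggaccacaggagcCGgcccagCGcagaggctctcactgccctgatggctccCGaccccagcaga
Within these windows the 6 measured cytosines of the first averaged 0.264% and the 3 of the second 17.5%.

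Over the classes, the fibrillar promoters averaged 8.42% (8 genes) and the basement membrane promoters 2.41% (6 genes). The shared promoters of the type IV genes are counted for each of their genes, here and in all counts of promoters and regions. The difference was 6.01 ± 0.958 points (SD, n = 4 mice) and had the same sign in all 4 mice (exact sign test, p = 0.125). It rested on Col11a2, since without that gene it was 1.51 points, and it took the opposite sign, -0.927 points, when medians over genes were used in place of means. These last values were chosen after seeing the data. The exact sign test gave p = 0.125 without Col11a2 and p = 0.625 with medians, where the mice did not share a sign.

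**Figure D2:**
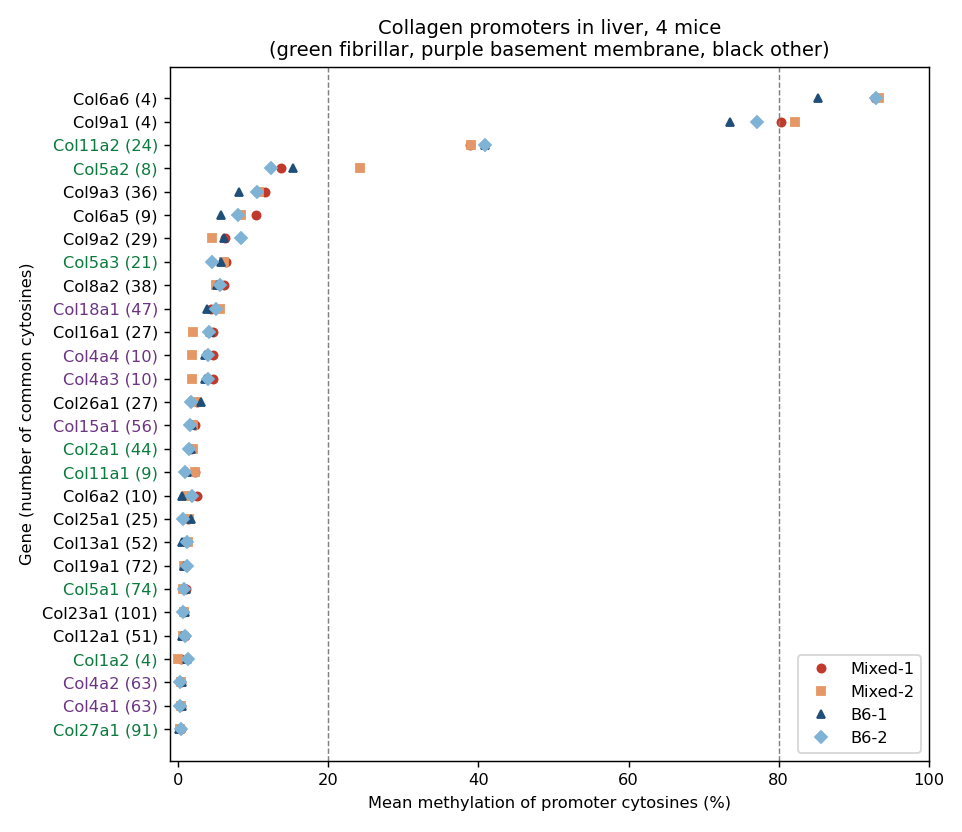
Mean methylation (%) of the promoter cytosines of each collagen gene with at least 3 of them, 1 point per mouse, with the number of cytosines in brackets and dashed lines at 20% and 80%. Of the 28 promoters, 25 lie left of 20% on their mean, and Col11a2, Col9a1 and Col6a6 lie right of it in every mouse.

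Outside these classes, 14 collagen promoters were measured, and 12 were hypomethylated. Col6a6, a chain of the beaded filaments of type VI collagen, had 92.8%, 93.3%, 85.2% and 92.9% over 4 cytosines. They lay 17473 to 17514 bp after the first of its 2 curated starts, at the upstream edge of the window of the second. The Col6a6 level therefore describes the edge of a promoter window. Col9a1, a chain that coats cartilage fibrils, had 80.3%, 82.2%, 73.5% and 77.1% over 4 cytosines, split evenly between its 2 starts. Those of the first start were at -936 and -911 bp from it, also at the edge of the window. Both rest on few cytosines, and the lowest mouse was B6-1 in each. Among the rest, Col9a3 reached 10.3%, Col6a5 8.14% and Col9a2 6.31%, and the other promoters averaged 5.53% or less. The transmembrane collagens with a measured promoter, Col13a1, Col23a1 and Col25a1, averaged 1.02%, 0.811% and 1.30%.

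Collagen promoters as a group were somewhat higher than those of other genes. Their mean over genes was 10.5%, against 6.99% for 13454 other genes, a difference of 3.51 ± 0.384 points in all 4 mice (exact sign test, p = 0.125). With at least 5 cytosines per promoter, which leaves out Col6a6, Col9a1 and Col1a2, it was -0.444 points. The median promoter was 2.20% in collagen genes and 0.314% in others, and 89.3% of collagen promoters against 91.0% of the others were hypomethylated. CpG content around the start is given as a description. The CpG ratio, the number of CpGs over the number that the C and G content of 1000 bp around the start would give, was 0.6 or above in 13 of 42 collagen genes (31.0%) and in 52.6% of other genes, and between 0.3 and 0.6 in 20 collagen genes (47.6%) and in 19.6% of others. In the upper of these bins all 13 collagen promoters were measured, with a median of 0.965% against 0.204% in other genes. In the middle bin 14 were measured, with a median of 5.20% against 2.73%. Of the 9 collagen genes under 0.3, 1 was measured, Col9a1.

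Bodies of collagen genes ranged from near full methylation to near none. Over exon and intron cytosines together, 22 of 42 genes were above 80%, 19 between the bounds and 1 below 20%. Whole bodies of other genes were not counted. By feature, introns were hypermethylated in 45.0% of collagen genes and 45.3% of others, and exons in 73.0% and 59.8%. Col10a1, made by cartilage cells before bone forms, was highest with 95.05%, 97.8%, 98.0% and 91.4% over 5 cytosines. Next came Col6a2, a type VI chain, with 92.8%, 92.4%, 92.7% and 92.2% over 41. Col14a1, which lies along fibrils, had 87.0%, 88.8%, 89.1% and 90.7% over 10. Col10a1 was above Col6a2 in 3 mice and below it in B6-2, so this order lies within the spread of the mice.

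At the other end, Col3a1, the collagen of vessels and elastic tissue that also marks scar in liver, was lowest with 9.49%, 12.05%, 9.52% and 9.90%. Its value came from 4 intron cytosines between 4403 and 4488 bp after the start, the only common cytosines of the gene. Col8a2, of the membrane behind the cornea, had 28.4%, 24.5%, 25.3% and 26.4% over 96 cytosines. Col1a1, the main chain of type I collagen, had 43.8%, 43.9%, 43.9% and 43.8% over 36 cytosines. The 4 mice nearly coincided in Col1a1, although its single cytosines spread widely. Its 7 intron cytosines averaged 12.4%, 12.4%, 14.3% and 14.1%, and its 29 exon cytosines 51.4%, 51.5%, 51.0% and 50.9%. In each of Col3a1, Col8a2 and Col1a1 the spread between mice was small beside the distance to the median collagen body of 81.3%. Col1a2, which pairs with Col1a1 in the same molecule, had exons at 88.1%, 87.3%, 85.9% and 86.0% over 6 cytosines, so the exons of the 2 type I chains did not share a level.

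Fibrillar bodies were lower than basement membrane bodies on the mean. Exons averaged 80.4% in 9 fibrillar genes and 85.4% in 6 basement membrane genes, a difference of -4.99 ± 0.862 points. Introns averaged 59.6% in 10 fibrillar genes and 76.4% in 6 basement membrane genes, a difference of -16.8 ± 1.53 points. Both differences had the same sign in all 4 mice (exact sign test, p = 0.125). Most of the exon difference rested on Col1a1, and most of the intron difference on Col3a1 and Col1a1, which were left out after seeing the data. Without Col3a1 and Col1a1 the exon difference was -1.34 points and the intron difference -4.81 points, and with medians over genes in place of means the intron difference was -2.85 points. The basement membrane introns ran from 65.6% in Col15a1 to 83.8% in Col4a3, and the fibrillar introns from 10.2% in Col3a1 to 86.2% in Col24a1.

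**Figure D3:**
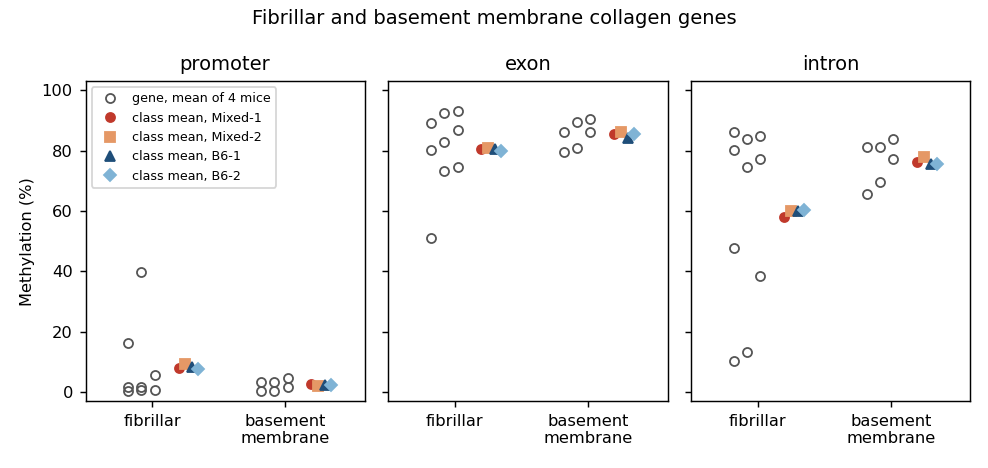
Methylation (%) of promoters, exons and introns in fibrillar and basement membrane collagen genes, with open circles for genes (mean of 4 mice) and coloured symbols for the class mean in each mouse. The class means of the mice lie close together, and the fibrillar introns spread from 10.2% to 86.2%.

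Some genes carried runs of unmethylated cytosines in their bodies, mostly in introns. A block was defined as at least 5 consecutive body cytosines, each below 20% on the mean of the 4 mice and no more than 500 bp apart. There were 8 blocks in 5 of 40 collagen genes with enough body cytosines (12.5%), against 21.9% of 9952 other genes. Col8a2 held 3 of them. The first had 35 intron cytosines at 1.83%, 0.512%, 0.6998% and 1.79%, lying 10115 bp after the curated start, and another had 20 intron cytosines at 8.07%, 7.31%, 6.95% and 5.85%, lying 14633 bp after it. Col8a2 exons, in contrast, were at 94.2%, 90.6%, 94.2% and 92.8%. The first block lay 2963 bp from the nearest start of any Col8a2 transcript, a predicted one, and 24794 bp from the start of the next curated gene, Adprhl2. The other Col8a2 blocks lay closer to a predicted start of the gene, at 1190 and 1555 bp. Col2a1 held 2 intron blocks, 16 cytosines at 0.477%, 0.711%, 0.463% and 0.646% centred 1432 bp after the start and 20 cytosines with a mean of 1.59% centred 2592 bp after it. The latter block lay 1744 bp from a predicted start of Col2a1. Col2a1 exons were at 91.8%, 92.1%, 92.3% and 93.4%. Of the remaining blocks, those of Col13a1 (5 cytosines, 5.92%) and Col23a1 (8, 1.24%) lay in introns. The Col9a2 block (7 cytosines, 11.2%) held 6 exon cytosines and 1 intron cytosine.

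The first Col8a2 block (plus strand, chr4:126296770-126297048) and the nearer Col2a1 block (minus strand, chr15:98003251-98003333) are printed because they had the lowest means among the blocks of these genes. They were read from the GRCm38 genome, and capitals mark measured CpGs, 23 of 25 and 10 of 10.
Col8a2 intron block: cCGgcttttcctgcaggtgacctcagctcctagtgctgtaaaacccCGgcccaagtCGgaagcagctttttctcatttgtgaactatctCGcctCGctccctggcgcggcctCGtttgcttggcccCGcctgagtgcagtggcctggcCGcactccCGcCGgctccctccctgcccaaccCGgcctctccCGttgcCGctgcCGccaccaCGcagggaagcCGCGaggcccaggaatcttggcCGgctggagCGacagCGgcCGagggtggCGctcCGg
Col2a1 intron block: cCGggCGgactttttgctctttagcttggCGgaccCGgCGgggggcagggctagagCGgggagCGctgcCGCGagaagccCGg
Col2a1 changed from these blocks to near full methylation within its body, whereas Col8a2 kept low cytosines as far as 15 kb from its curated start and high ones in its exons further on.

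**Figure D4:**
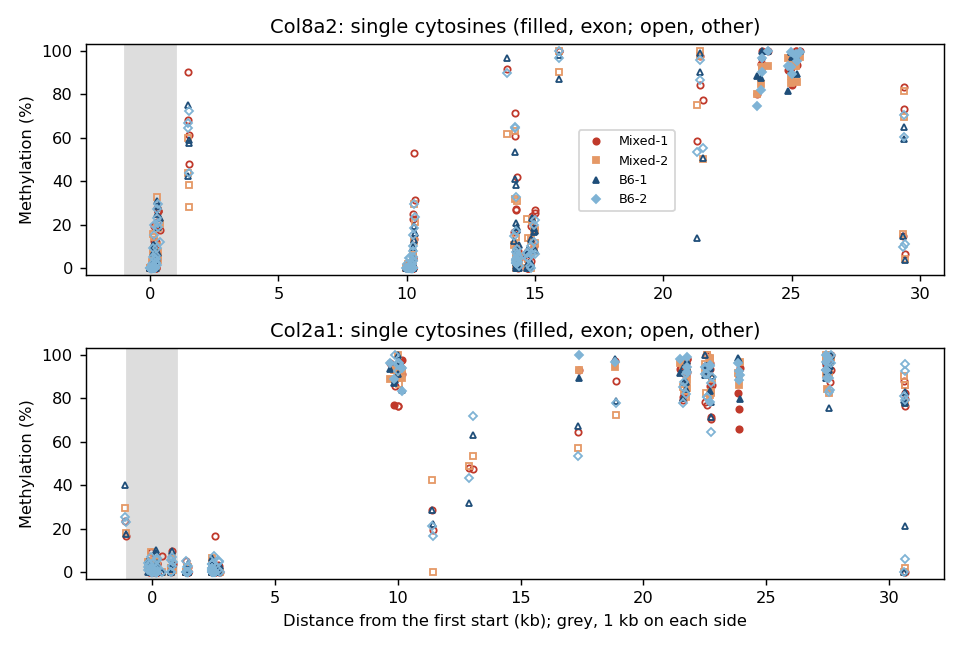
Methylation (%) of single common cytosines of Col8a2 and Col2a1 by distance from the first start (kb), 1 symbol and colour per mouse, filled for exon cytosines and open for others, with the promoter window in grey. The low groups at 10 to 15 kb in Col8a2 and within 3 kb in Col2a1 contain no cytosine classed as exon, and the exon cytosines further on lie mostly above 80%.

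The exon and intron levels of the same gene could be compared in 35 collagen genes. Exons were higher in all 4 mice in 26 genes and lower in all 4 in 6 genes, a count that was not made for other genes. The mean difference was 11.7 ± 0.757 points (SD, n = 4 mice) and the median over genes was 5.89 points, with the same sign in all 4 mice (exact sign test, p = 0.125). The largest gaps were in Col8a2 (77.3 points), Col2a1 (54.05), Col12a1 (49.0), Col1a1 (37.9) and Col11a1 (32.6). The most negative was in Col9a2, at -14.2 points. With cytosines more than 5 kb from the gene's starts alone, 32 genes were left, with a mean of 9.11 points and a median of 5.81. Over all their cytosines the same 32 genes had a mean of 10.1 points and a median of 5.24. Col9a2 changed sign beyond 5 kb, to 9.67 points, and was positive there in all 4 mice. Within-gene differences were not taken for other genes, so single cytosines pooled over genes are given for both groups. Those of other genes averaged 57.7% in exons and 59.6% in introns, and beyond 5 kb 70.1% and 67.1%. Those of collagen genes averaged 80.7% in exons and 68.7% in introns, and beyond 5 kb 81.0% and 71.7%.

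Collagen exons were higher than other exons on the mean and little different on the median. The mean over genes was 82.1% in collagen genes and 71.7% in 7477 other genes, a difference of 10.5 ± 0.610 points in all 4 mice (exact sign test, p = 0.125). The medians were 85.4% and 84.8%, and their difference of 0.465 points was not of one sign in all mice (exact sign test, p = 0.625). The size of the mean difference moved with the setting. It was 6.56 points with promoters of 2000 bp on each side and 3.67 points beyond 5 kb from the starts, 23.4 points over single cytosines in place of genes and 31.8 points with the promoter upstream only. No collagen gene of 37 had hypomethylated exons, against 11.2% of the other genes. Introns averaged 70.0% in collagen genes and 69.2% in 8955 other genes, a difference of 0.857 ± 0.502 points whose sign changed under several alternatives. Among exon cytosines, those of collagen genes averaged 79.6% in internal exons and 87.6% in last exons, and those of other genes 68.4% and 57.8%. These are means over single cytosines, not matched for distance from the starts or for the number of CpGs nearby.

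Taken at all distances from the starts, the number of CpGs nearby went with the level differently in collagen exons and in other exons. Of collagen exon cytosines, 3.82% had more than 12 CpGs within a window of 200 bp, against 37.3% of exon cytosines in other genes. At 6 or fewer CpGs the exon levels were 80.7% in collagen genes and 80.04% in others, and at 7 to 12 they were 79.7% and 76.4%. Above 12 CpGs they were 91.5% in collagen genes (30 cytosines) and 24.2% in others. Those 30 cytosines came from 3 genes, with 18 in Col6a2 at 93.6%, 94.8%, 92.4% and 92.3%, 11 in Col22a1 at 88.9%, 88.7%, 87.4% and 92.7%, and 1 in Col26a1. Introns above 12 CpGs were at 12.2% in collagen genes (107 cytosines, 56 of them in Col8a2 and 32 in Col2a1) and at 11.4% in others. The groups were not matched for distance from the starts. Of exon cytosines, 761 of 786 in collagen genes lay over 5 kb from a start, against 88246 of 131328 in other genes. The part of this distance in the levels was not tested. Cytosines of 1 gene are not independent, so these levels are descriptions without a test.

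**Figure D5:**
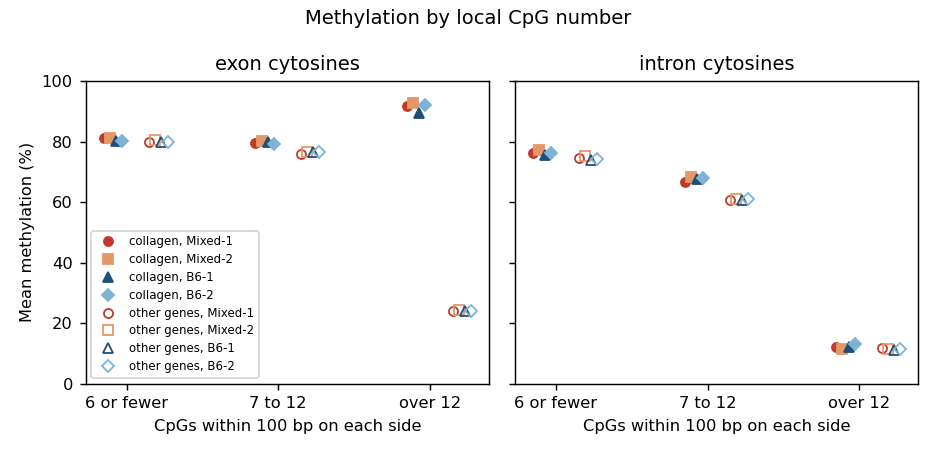
Mean methylation (%) of exon and intron cytosines by the number of CpGs in a window of 200 bp centred on the cytosine, filled for collagen genes and open for all other genes, 1 symbol per mouse. Above 12 CpGs collagen exons stay at 91.5% while other exons are at 24.2%, and introns are low in both groups. The groups were not matched for distance from the starts.

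The helix repeat was visible in the annotated internal coding exons of collagen genes, counted whether or not they held a measured cytosine. Of 603 internal coding exons of fibrillar genes, 504 (83.6%) had a length divisible by 9 bp and 291 were exactly 54 bp long, whereas 117 of 267 exons of basement membrane genes (43.8%) were divisible by 9 bp and 11 had 54 bp. Of the coding CpG cytosines in collagen genes, 39.9% stood at the third position of a codon, against 36.2% in other genes, and 60.9% of these 297 were followed by a codon starting with GG, the start of every glycine codon, against 38.2% in other genes. The 181 cytosines before a glycine codon averaged 79.3%, 78.9%, 78.2% and 78.8%, and the other 116 averaged 79.4%, 82.0%, 80.2% and 80.5%. In collagen genes the levels at the 3 codon positions were 80.4%, 81.1% and 79.5%, and in other genes 68.0%, 52.2% and 53.9%.

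The 3 exons of 54 bp with the most measured cytosines are printed to show this repeat, on the plus strand and with capitals at measured CpGs. They lie at chr17:34060579-34060632 (Col11a2), chr2:28022281-28022334 (Col5a1) and chr11:94941380-94941433 (Col1a1).
Col11a2 exon: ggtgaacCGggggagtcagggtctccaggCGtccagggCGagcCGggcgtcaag
Col5a1 exon: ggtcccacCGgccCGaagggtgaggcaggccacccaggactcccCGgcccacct
Col1a1 exon: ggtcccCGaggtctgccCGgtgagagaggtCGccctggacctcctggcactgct
In each of them 6 of the 18 triplets start with GG, and these stand 9 bp apart from the first triplet on. Their measured cytosines averaged 70.1%, 70.3%, 64.7% and 61.0% in Col11a2, 97.5%, 98.0%, 93.1% and 96.1% in Col5a1, and 20.5%, 36.3%, 38.5% and 31.1% in Col1a1. Exons of the same length and repeat thus differed in level between genes in every mouse.

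No difference between the strains in mean collagen levels passed a test. The mean of the Mixed mice minus that of the B6 mice was 0.639 points in promoters, 1.02 in exons and 0.107 in introns. Two-sided exact permutation tests gave p = 0.333, 0.333 and 1, and 0.333 is the smallest p that 2 against 2 mice allow. In a limma fit across 29991 gene regions, 0 of 105 collagen regions were called at an adjusted p under 0.05, as was 0% of all regions, and 0 were called under every alternative run. At an unadjusted p under 0.05 there were 9 collagen regions, against 6.3% of all. The smallest adjusted p of a collagen region was 0.654, for the Col11a1 promoter, given above, and the Col9a3 introns (65.3%, 62.0%, 48.0% and 50.8% over 3 cytosines). Both Mixed mice lay above both B6 mice in 26 collagen regions (24.8%, against 19.8% of all regions), and below them in 16 (15.2%, against 15.6%).

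Across all common cytosines, a logistic model of the reads called 68 at an adjusted p under 0.01 and a difference of at least 25 points. These were 0.00542% of all cytosines, and those higher in the Mixed mice were 0.00136%. Among the collagen cytosines 1 of 3110 was called, and it was higher in the Mixed mice. At an unadjusted p under 0.05 there were 83 (2.67%), against 1.93% of all. The called cytosine lies in an intron of Col23a1, a transmembrane collagen, at chromosome 11 position 51336737 on the plus strand. Its levels were 85.0% and 85.2% in Mixed-1 and Mixed-2 and 0% in both B6 mice, at coverages of 60, 54, 29 and 63 reads. The 95% Wilson intervals were 73.9% to 91.9% and 73.4% to 92.3% in the Mixed mice, and 3 reads at the coverages of B6-1 and B6-2 would be 10.3% and 4.76%. These intervals and limits cover counting error alone, since amplified reads are not independent molecules. The difference of 85.1 points had an adjusted p = 0.000212 in the logistic model moderated with limma. Without B6-1 or without B6-2 the cytosine was no longer called, with adjusted p = 0.670 and 1, although the difference was 85.1 points in both fits. These 2 fits of the same model called 0 of the 1253673 cytosines, of which 2.38% and 2.89% had an unadjusted p under 0.05.

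The cytosine is printed in the middle of 41 bases of the plus strand (chr11:51336717-51336757), with its CpG in capitals, because its neighbours behaved differently.
Col23a1 intron: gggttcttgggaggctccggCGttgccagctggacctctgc
The plus-strand cytosine 3 bp before it had 98.3%, 98.1%, 93.3% and 90.5% at coverages of 60, 54, 30 and 63 reads. The nearest measured cytosine after it, 43 bp on, had 94.8%, 94.4%, 82.9% and 92.8%. Of the 6 common cytosines measured around this place, the called one alone was at 0% in the B6 mice. The opposite strand of this CpG was not analysed here. A read of T at this place is given alike by an unmethylated C and by a T in the animal's DNA, and the 2 cannot be told apart from these values.

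Most measured promoters of genes that act on collagen were hypomethylated, as were 91.0% of all promoters outside the collagen genes, so the counts that follow are not particular to these lists. Of 31 genes for processing enzymes and chaperones, 28 had a measured promoter, and all 28 were hypomethylated, with a median of 0.384% and a range from 0.112% to 6.25%. P4ha1, a subunit of the enzyme that hydroxylates proline, averaged 0.125%, Serpinh1, the collagen chaperone, 3.04%, and Lox, which crosslinks fibrils, 6.25%. Of 10 receptors 7 were measured and 6 were hypomethylated. The exception was Ddr2, a receptor for fibrillar collagen, with 70.4%, 92.3%, 90.6% and 91.7% over 4 cytosines, where Mixed-1 stood more than 20 points below each of the other mice. Of 9 genes of collagen degradation 5 were measured, and Mmp9, a gelatinase, was the 1 above 20%, with 48.8%, 41.2%, 48.0% and 44.1% over 7 cytosines. Of 15 other basement membrane genes 11 were measured and hypomethylated, from 0.171% in Lamc1 to 14.0% in Lamc3, both laminin chains.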

How the data were processed

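Methylation was measured by ERRBS in liver DNA of 4 mice, 2 Mixed and 2 B6. Reads were aligned by the authors to mm10. The study's methods name BSMAP, while the submitters' processing notes name Bismark and SAMtools, and no versions are given in the sources used here. The deposited coverage is a raw count of reads for 1 strand of a CpG, listed from 10 reads upwards. Beside it the authors gave the percent of reads showing C and the percent showing T. Mean coverage ran from 44.2 to 63.7. Values were averaged over cytosines of the autosomes common to all mice and placed on GRCm38 with RefSeq genes, from curated transcripts.

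Methylated reads were recovered as percent times coverage. Features and classes were compared within each mouse by exact sign tests, strains by exact permutation tests. Single cytosines were fitted by a logistic model with overdispersion moderated by limma 3.58.1 in R 4.3.3, with its prior set by cytosines with at least 20 reads of each kind, and gene regions by limma with a trend. On simulated data, 41.5% of 200 changed cytosines of 100000 were recovered with overdispersed spread and 96% with binomial spread, with 0 false calls in each. Of 100 gene regions changed by 25 points 63% were recovered, and of 100 changed by 50 points 100%, with 1 false call among 29991. Python 3.11.15, numpy 2.4.6, scipy 1.17.1 and matplotlib 3.10.9 were used.

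The genes, lists and classes were chosen with earlier results of these data known. Named by rule were fibrillar and basement membrane genes with a measured promoter, other promoters above 20%, genes with more than 1 measured start, called cytosines, and the 3 highest and 3 lowest bodies. Blocks, CpG numbers and codon positions were examined after the levels had been seen, and genes named there were chosen by their values. Alternatives were other coverage bounds, merged strands, pooled reads, other promoters, transcripts and gene weights, another minimum of cytosines, other classes, other tests, and leaving out each mouse or the genes with the most extreme values.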

Additional observations from a re-analysis of the deposited data

Results flagged for a closer look

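Col6a3, a chain of type VI collagen, had exons above introns by 11.8 and 0.895 points in Mixed-1 and Mixed-2 and below them in the B6 mice, by differences of -0.511 and -1.21 points. The strain means of exon minus intron differed by 7.23 points, with both Mixed mice on one side of 0 and both B6 mice on the other. This difference was not tested. It lay mostly in the introns of Mixed-1, which were at 76.6% over 10 cytosines against 89.5%, 90.4% and 88.8% in Mixed-2, B6-1 and B6-2. Among these 10, the plus-strand cytosine at position 90833366 of chromosome 1 was at 0% in Mixed-1, over 34 reads, and at 96.4%, 89.1% and 83.6% in the others. Without it, a choice made after seeing the data, the introns were at 85.1%, 88.7%, 90.5% and 89.4%, and the difference between the strains was 3.72 points.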

How the results depend on the processing

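Of 267 alternative values of 18 results, 240 kept their direction and call. The intron strain difference, 0.107 points, turned to -0.298 with at least 5 cytosines per region, -0.388 at a coverage of 20 and -0.0889 with the promoter upstream only, and ranged from -0.598 to 0.813 when 1 mouse was left out. Collagen minus other introns, 0.857 points, turned to -0.524 with medians, -2.97 with promoters of 2000 bp on each side, -0.318 with all transcripts, -0.194 without cytosines near other genes' starts and -1.67 beyond 5 kb. Collagen minus other promoters turned to -0.444 points with at least 5 cytosines, fibrillar minus basement membrane promoters to -0.927 with medians, and exon minus intron to -2.17 with the promoter upstream only. Collagen minus other exons, 10.5 points, kept its sign and ran from 0.465 with medians to 31.8 with the promoter upstream only, where introns reached 22.4. Over single cytosines, fibrillar minus basement membrane differences were 3.29 points in promoters, -9.24 in exons and -7.28 in introns. With the promoter upstream only, the alternative moves the first kilobase into exons and introns. The cause of the other reversals was not tested. Medians, the distance beyond 5 kb, the named genes left out and the overdispersion from every variable site were added after seeing the data.

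Collagen cytosines called numbered 1, 3 by Fisher's exact test on pooled reads, and 0 to 2 when 1 mouse was left out, with 0 without B6-1 or B6-2. All called cytosines numbered 68, and 1586 by Fisher's test, 219 at an adjusted p under 0.05 and 10 points, 28 with the overdispersion from every variable site, and 0 to 399 without 1 mouse. With the mouse number as a replicate block, 305 cytosines were called, 1 of them in a collagen gene, 0 regions were called, and the strain differences kept their means of 0.639, 1.02 and 0.107 points. The numbers do not pair the mice, as deviations of same-numbered mice correlated at 0.00966 over 29991 regions with 2 pairs.

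With 4 mice the exact sign test cannot fall below p = 0.125. Some regions, such as the Col3a1 introns and the Col6a6 promoter, rest on 4 cytosines, and cytosines outside the captured fragments were not analysed here.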
